A study of Mus musculus with 6 samples.

Results

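The Frizzled genes, *Fzd1* to *Fzd10*, encode the cell-surface receptors for Wnt proteins, and all 10 mouse genes were described here in cells of the *Pdx1-Cre* lineage with and without the microRNA cluster *mir-302*. They were taken as the rows whose Ensembl gene identifier, with its version removed, belongs to these symbols, and each symbol matched 1 of the 55414 rows. The rule itself uses no measured value. A Frizzled protein crosses the membrane several times and binds Wnt with an extracellular cysteine-rich domain. With the co-receptors Lrp5 or Lrp6 it passes the signal through Dishevelled to stabilise β-catenin, and without them it acts on cell polarity and calcium. By protein similarity the family is usually divided into *Fzd1*, *Fzd2* and *Fzd7*, *Fzd3* and *Fzd6*, *Fzd5* and *Fzd8*, and *Fzd4*, *Fzd9* and *Fzd10*. Wnt signaling is known to pattern the gut tube and to act in the growth of the pancreas.

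Polyadenylated RNA was measured in 6 libraries of tdTomato-positive cells at E10.5, 3 from wild-type (WT) and 3 from knockout (KO) embryos. All 6 libraries carried *Pdx1-Cre* and the tdTomato reporter, which marks any cell in which Cre has acted and its descendants. WT libraries were labelled miR-302WT and KO libraries miR-302KO, and the embryos came from crosses of parents heterozygous for a *mir-302* deletion, so the KO lacked the cluster in every tissue and not only in labelled cells. Cells were sorted from the trunk, and *Pdx1-Cre* also marks endoderm next to the pancreas, so the sort was not restricted to the pancreatic buds. Nothing in the labels says whether the libraries of a genotype came from separate embryos or litters, and the p-values below measure the spread between these libraries. The library names of WT replicate 2 and KO replicate 1 begin with the same code, whose meaning is not stated, and it was not used.

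The libraries held 17352498 to 26634523 counts, and 16353 genes passed the filter on low counts, 9 of the Frizzled genes among them. All 12 markers of pancreatic progenitors passed that filter, and their summed level, in counts scaled to library size (CPM), ran from 1050 to 1200 in WT and from 1150 to 1320 in KO. *Ptf1a*, at 1.52 to 4.96 CPM, and *Nkx6-1*, at 0.762 to 4.73 CPM, were among the lowest of them. The sum hides that *Gata4*, at 173 to 249 CPM in WT and 322 to 342 CPM in KO, did not overlap between genotypes. Nor did *Gata6*, at 10.4 to 18.7 CPM in WT and 29.8 to 42.8 CPM in KO, while the other progenitor markers overlapped. The 5 epithelial markers summed to 3570 to 4110 CPM. Markers of other cells were unequal between libraries of 1 genotype. The 5 blood markers, mostly hemoglobins, reached 11700 CPM in WT replicate 3, 4520 CPM in KO replicate 1 and 234 CPM in KO replicate 3, and were at 0.741 to 1.27 CPM in the other 3 libraries. The 10 mesenchyme markers summed to 190 to 1070 CPM in WT, to 1050 CPM in KO replicates 1 and 3 and to 47.5 CPM in KO replicate 2. In sorted bulk cells, fewer cells of a type and less RNA per cell cannot be told apart.

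Sequences of deleted microRNAs and matches to their main seed in Frizzled transcripts are shown first, because pairing is the direct route from the deletion to a transcript. A microRNA pairs with the 3′ untranslated region (3′UTR) of a messenger RNA mainly through its seed, bases 2 to 8 counted from 1 at the 5′ end, and pairing lowers the level of the messenger RNA. The 3 mature sequences below are from RefSeq on GRCm38.p6, written 5′ to 3′ with the seed in capitals. They lie on the plus strand of chromosome 3 within an intron of *Larp7*, which is transcribed from the other strand. miR-302b-3p lies at chr3:127545275-127545297, miR-302c-3p at chr3:127545406-127545427 and miR-302d-3p at chr3:127545665-127545687.
miR-302b-3p: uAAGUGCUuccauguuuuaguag
miR-302d-3p: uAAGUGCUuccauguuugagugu
miR-302c-3p: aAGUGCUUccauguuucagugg
miR-302b-3p and miR-302d-3p share the seed AAGUGCU. The listed miR-302c-3p begins 1 base later, so that bases 2 to 8 read AGUGCUU. The cluster also encodes miR-302a-3p and miR-367.

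The 3′UTRs of the Frizzled genes were searched on the transcript strand for AGCACTT, the match to seed AAGUGCU, for GCACTTA, the match to its first 6 bases followed by A, and for AGCACTTA, which contains both. The seeds AGUGCUU and that of miR-367 were not searched. Such a match was present in 4 of the 10 genes, and 6 had none. *Fzd3* had a match of 8 bases and a match of 7, *Fzd8* had a match of 8 bases, and *Fzd6* and *Fzd10* had a match of 7 bases each. The *Fzd3*, *Fzd6* and *Fzd10* matches are printed from GENCODE M21 transcripts (GRCm38), 5′ to 3′, with the matching bases in capitals.
*Fzd3*, 8 bases: aatcgtgtcagcagaAGCACTTActatg
*Fzd3*, 7 bases: tgtaaatgtttttcttAGCACTTtaact
*Fzd6*, 7 bases: tgttacagtcttccttGCACTTAaacca
*Fzd10*, 7 bases: ccatgagtggtcttgaAGCACTTgggaa
Counted from the first base after the stop codon, the matches begin at positions 7296 and 10174 of the 10270 bases in *Fzd3*, at 189 of 1634 in *Fzd6*, at 235 of 3159 in *Fzd8* and at 1004 of 1127 in *Fzd10*. A match of 7 or 8 bases was also present in 20.6% of the 13768 3′UTRs of tested genes, and in 28.9% of the 7071 that are 1000 to 5000 bases long. *Fzd2* and *Fzd7*, whose 3′UTRs are 1614 and 2277 bases long, had none of these letters, and neither had *Fzd1*, *Fzd4*, *Fzd5* and *Fzd9*. A match is a description of the sequence and not evidence of binding, and no match says only that these letters were not found in the 3′UTR of this annotation.

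To see which Frizzled transcripts the WT cells held, levels were divided by the length of the gene's exons and given as CPM per kilobase. *Fzd2* was highest, at 10.9 ± 1.83 CPM per kilobase (SD, n = 3), followed by *Fzd3* at 8.37 ± 0.614, *Fzd4* at 7.12 ± 0.188, *Fzd1* at 6.05 ± 0.895, *Fzd7* at 5.94 ± 2.11 and *Fzd6* at 4.70 ± 0.654. These 6 transcripts lay within a narrow band, between the 50.2 and the 68.1 percentile of all genes tested on the same scale. *Fzd5* followed at 0.891 ± 0.104 CPM per kilobase, *Fzd8* at 0.375 ± 0.0326, *Fzd9* at 0.0883 ± 0.0235 and *Fzd10* at 0.0154 ± 0.0146. *Fzd8*, at the 10.7 percentile, and *Fzd9*, at the 1.16 percentile, were near the bottom of the genes tested. WT ranges of neighbours in this order did not overlap, except those of *Fzd1* and *Fzd7* and of *Fzd7* and *Fzd6*. The wide range of *Fzd7*, 3.96 to 8.16 CPM per kilobase, also took in *Fzd4* and reached *Fzd3*.

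**Figure D1:**
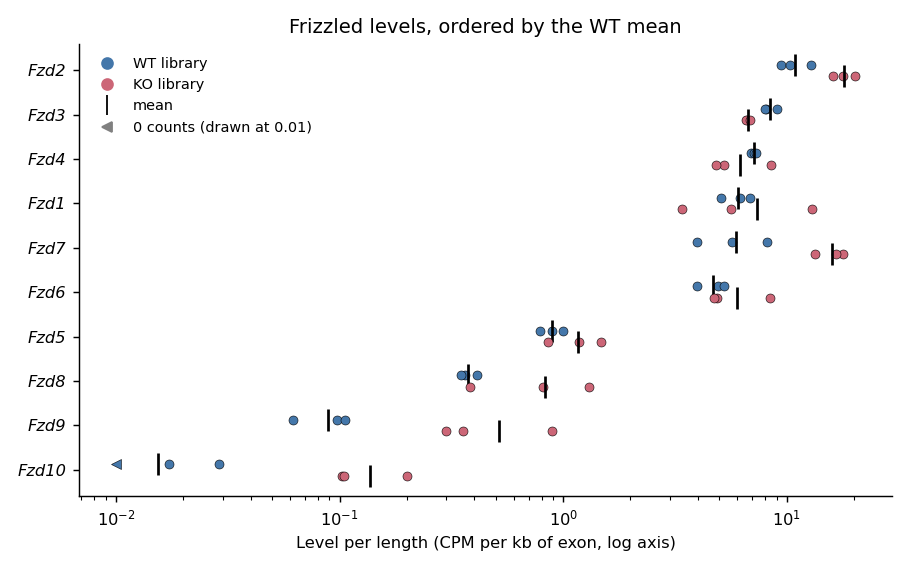
Level of each Frizzled gene in CPM per kilobase of exon on a log axis, 1 point per library (WT blue, KO red) and a bar at the mean of each genotype, with genes ordered by the WT mean. *Fzd2* leads in WT at 10.9 CPM per kilobase, and *Fzd7* moves from place 5 in WT to place 2 in KO, at 16.0 CPM per kilobase.

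The order of the higher members depended on length. Without division by length *Fzd3*, whose exons span 12804 bases, came first at 107 ± 7.86 CPM, and *Fzd2* came 3rd. With the coding length in place of the exon length the order was the same as without length, so *Fzd3* or *Fzd2* led according to the measure of length used. *Fzd5*, *Fzd8*, *Fzd9* and *Fzd10* kept places 7 to 10, in this order, in every version.

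Summed over the 10 genes, the family stood at 40.7, 48.6 and 43.9 CPM per kilobase in WT replicates 1, 2 and 3 and at 64.4, 51.4 and 73.0 in KO replicates 1, 2 and 3. Every KO library lay above every WT library, and the means were 44.4 ± 3.97 and 62.9 ± 10.9 CPM per kilobase (SD, n = 3 each). In CPM not divided by length the genotypes overlapped, with sums of 269, 293 and 274 in WT and of 344, 287 and 390 in KO. Of the sum in CPM per kilobase, *Fzd2* made up 24.4 ± 1.92% in WT and 29.1 ± 4.04% in KO, and *Fzd7* 13.2 ± 3.53% and 25.5 ± 2.57%. The share of *Fzd3* in the same sum was 19.0 ± 2.96% in WT and 10.9 ± 1.75% in KO. The subfamily of *Fzd1*, *Fzd2* and *Fzd7* together held 51.1 ± 6.07% of the sum per kilobase in WT and 65.7 ± 2.15% in KO, and these shares did not overlap between genotypes. *Fzd7* per kilobase was 0.436, 1.01 and 0.714 times *Fzd3* in the WT libraries and 2.68, 2.04 and 2.41 times *Fzd3* in the KO libraries. Shares within a sum depend on each other, and they were not tested.

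To ask which receptors differ without *mir-302*, KO was compared with WT for every gene. By edgeR's quasi-likelihood test, 0 of the 9 Frizzled genes tested had a Benjamini-Hochberg adjusted p under 0.05, as for 0.0% of all genes. At an unadjusted p under 0.05, 4 were higher in KO, *Fzd2*, *Fzd7*, *Fzd8* and *Fzd9*, where 6.42% of all genes were called in this direction, and *Fzd3* was lower, where 3.97% were. DESeq2's Wald test with adjusted p under 0.05 called *Fzd7* and *Fzd2*, both higher, with 4.22% of its genes called higher and 0.648% called lower, and gave no adjusted p to *Fzd9* and *Fzd10*. The 3 KO libraries lay above the 3 WT libraries for 4 members, *Fzd2*, *Fzd7*, *Fzd9* and the untested *Fzd10*, against 8.36% of all genes tested, and below them for *Fzd3*, against 7.99%. For the other 5 members the genotypes overlapped. The median log2 fold change over the 9 tested members was 0.39, with 7 higher and 2 lower, and over all genes tested it was -0.02, with 45.6% higher. *Fzd9*, with 3 to 5 counts in the WT libraries, passed the filter on low counts through its KO libraries alone. Its place among the higher members was therefore largely set by the filter and is no support for a difference.

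**Figure D2:**
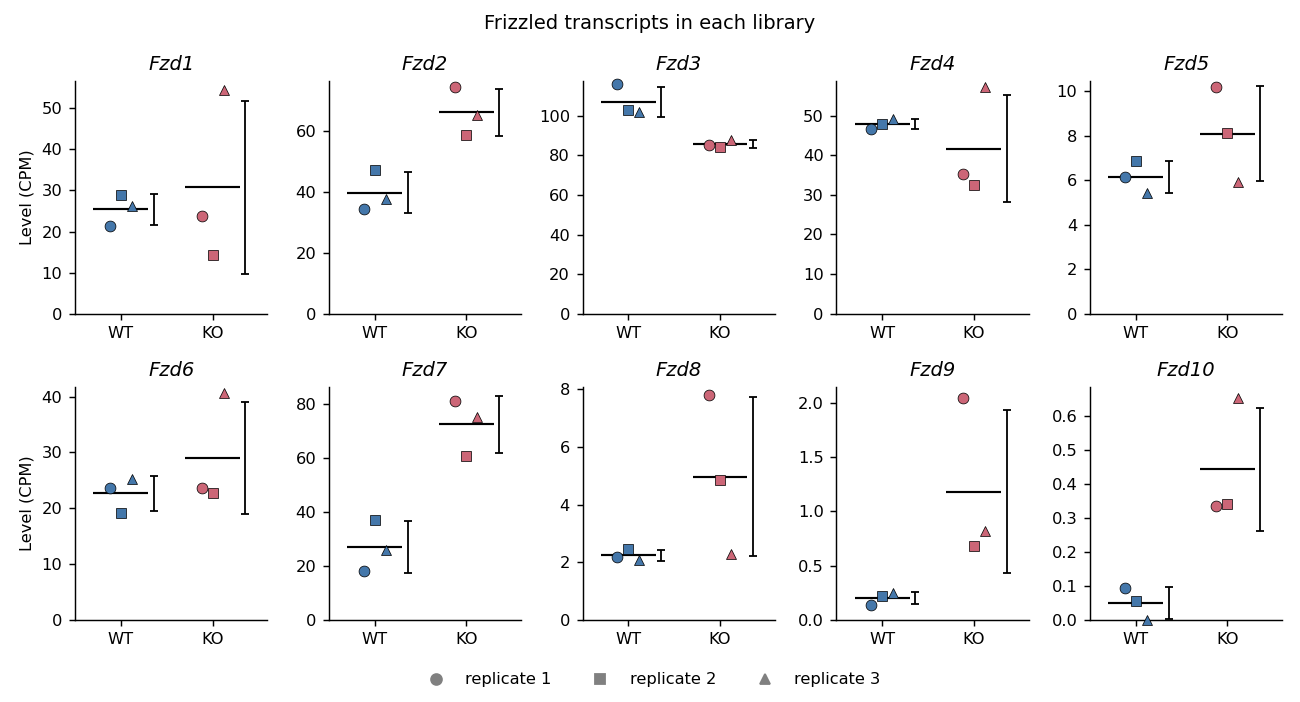
CPM of each Frizzled gene in the 6 libraries, with the replicate number as the marker shape, the mean as a horizontal line and the SD as a bar (n = 3), each panel on its own axis from 0. KO points lie above all WT points for *Fzd2*, *Fzd7*, *Fzd9* and *Fzd10* and below them for *Fzd3*.

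*Fzd7*, a receptor known from stem cells and early endoderm that signals through β-catenin, was at 18, 37.0 and 25.8 CPM in WT and at 81.1, 60.7 and 75.2 CPM in KO. The lowest KO library stood well above the highest WT library, and the WT libraries differed among themselves more than the KO libraries did in proportion. The log2 fold change was 1.43 (standard error 0.26, 95% interval 0.82 to 2.04), with an adjusted p of 0.132 by the quasi-likelihood test of edgeR (Benjamini-Hochberg) and 2.06e-06 by DESeq2's Wald test. Leaving out WT replicate 2, the WT library with the most *Fzd7*, gave 1.74, and edgeR's adjusted p then passed 0.05. This was the only such pass among the 6 fits that left out 1 library. The values without a library ran from 1.21 to 1.74.

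*Fzd2*, a close relative of *Fzd7* known for its role in closure of the palate, was at 34.4, 47.3 and 37.8 CPM in WT and at 74.5, 58.9 and 65.3 CPM in KO. The genotypes did not overlap, and as for *Fzd7* the highest WT value was in replicate 2 and the lowest KO value in replicate 2. The log2 fold change was 0.73 (standard error 0.15, 95% interval 0.37 to 1.09), with an adjusted p of 0.14 by the quasi-likelihood test of edgeR (Benjamini-Hochberg) and 0.000771 by DESeq2's Wald test. *Fzd1*, the third member of this subfamily, did not share the pattern. It was at 21.3, 28.8 and 26.1 CPM in WT and at 23.7, 14.2 and 54.4 CPM in KO, so that both the lowest and the highest value were in KO. Its log2 fold change of 0.28 (95% interval -0.77 to 1.32, edgeR adjusted p = 0.917) became -0.38 when KO replicate 3 was left out.

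*Fzd3*, which with *Fzd6* is known for planar cell polarity and for axon guidance, was at 116, 103 and 102 CPM in WT and at 85.3, 84.2 and 88.0 CPM in KO. All KO libraries were below all WT libraries, and within each genotype the values were close together. The log2 fold change was -0.32 (standard error 0.08, 95% interval -0.51 to -0.13), with an adjusted p of 0.175 by the quasi-likelihood test of edgeR (Benjamini-Hochberg) and 0.101 by DESeq2's Wald test. *Fzd3* is the Frizzled gene with matches to miR-302 at 2 places, and whether these matches bear on its level was not tested. *Fzd6*, with 1 match, was at 23.7, 19.1 and 25.2 CPM in WT and at 23.6, 22.7 and 40.6 CPM in KO. KO replicate 3 alone lay above the WT libraries, and the log2 fold change of 0.36 (95% interval -0.24 to 0.95, edgeR adjusted p = 0.737) was 0.07 without it.

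*Fzd5* and *Fzd8* form a pair of receptors known from eye, gut and yolk sac development. *Fzd8*, with a match of 8 bases, was at 2.17, 2.46 and 2.09 CPM in WT and at 7.79, 4.84 and 2.29 CPM in KO. In KO replicates 1 and 2 it was above every WT library, and in KO replicate 3 it lay within the WT range. The log2 fold change was 1.16 (standard error 0.43, 95% interval 0.14 to 2.18) with an edgeR unadjusted p of 0.0314 and an adjusted p of 0.395, and it was 0.69 without KO replicate 1. *Fzd5* was at 6.17, 6.87 and 5.44 CPM in WT and at 10.2, 8.15 and 5.93 CPM in KO, with KO replicate 3 again within the WT range. Its log2 fold change was 0.39 (95% interval -0.18 to 0.97, edgeR adjusted p = 0.674). Exons of the antisense gene *Gm38058* share 1233 bases with those of *Fzd5* in GENCODE M21, and 152 bases of *Fzd6* are shared with antisense *Gm26704*. These antisense genes had 3 to 18 and 0 to 3 counts per library. Whether counting used the strand is not given in the sources used here, and reads of these stretches could not be assigned to 1 strand.

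*Fzd4*, the receptor of Norrin in blood vessels of the retina, was at 46.6, 48.0 and 49.1 CPM in WT, the most even of the higher members, and at 35.3, 32.5 and 57.3 CPM in KO. KO replicates 1 and 2 were below the WT libraries and KO replicate 3 was above them. The log2 fold change was -0.20 (standard error 0.22, 95% interval -0.71 to 0.31, edgeR adjusted p = 0.854), and it was -0.46 without KO replicate 3. Without that library, *Fzd4* lay below WT and *Fzd5* and *Fzd8* above it with no overlap, and the number of members that did not overlap went from 5 to 8. Fewer libraries make a gap between genotypes easier to reach, and the share over all genes without that library is not given here. The rise is therefore not read as a result about the members.

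*Fzd9* and *Fzd10*, known from the hippocampus and from the dorsal neural tube and limb, were detected at few counts. *Fzd9* had 3, 4 and 5 counts in the WT libraries and 55, 12 and 15 in the KO libraries, or 0.141, 0.223 and 0.243 CPM against 2.05, 0.684 and 0.816 CPM. KO values were all higher, with KO replicate 1 far above the others. The log2 fold change was 2.54 (standard error 0.61, 95% interval 1.11 to 3.96, edgeR adjusted p = 0.165) and was 1.87 without KO replicate 1. *Fzd10* had 2, 1 and 0 counts in WT and 9, 6 and 12 in KO, too few to pass the filter. Summed over libraries, its 27 counts in KO against 3 in WT give a ratio of 8.61 after scaling by library size, with an exact 95% interval of 2.65 to 44.3 that covers counting error only. By the exact permutation test of CPM over libraries (two-sided), p was 0.1 for *Fzd10*, the smallest that 3 libraries against 3 allow. Even in KO both transcripts stayed at the bottom of the family, at 0.516 and 0.136 CPM per kilobase.

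**Figure D3:**
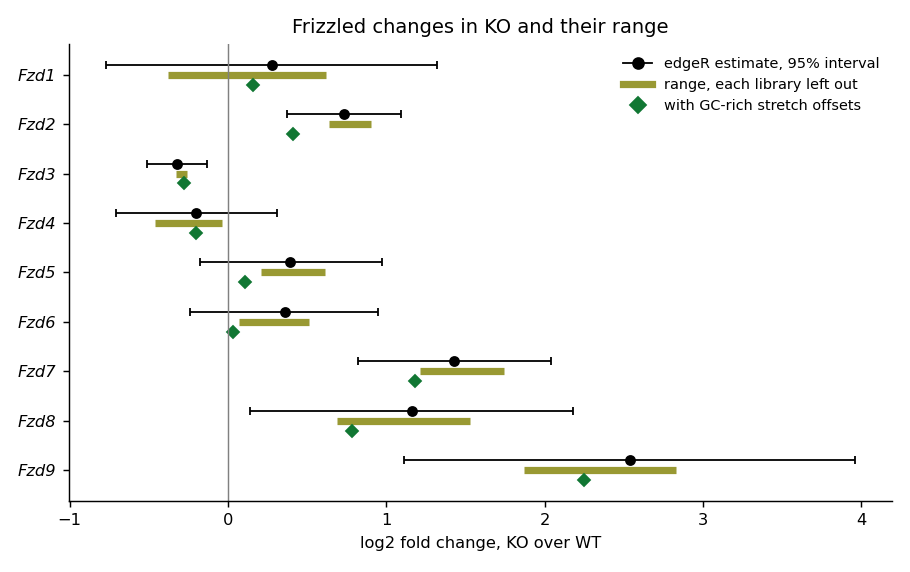
Log2 fold change (KO over WT) of the 9 tested Frizzled genes by edgeR with its 95% interval (black), the range over fits that each left out 1 library (olive bar) and the value with offsets for the most GC-rich stretch (green diamond). *Fzd2*, *Fzd7*, *Fzd8* and *Fzd9* stay above 0 and *Fzd3* below 0 in all 3, while the bar of *Fzd1* crosses 0.

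Set beside the miR-302 matches, the 3 tested members with a match had log2 fold changes of -0.32 (*Fzd3*), 0.36 (*Fzd6*) and 1.16 (*Fzd8*). The 6 without a match had values of -0.20 (*Fzd4*), 0.28 (*Fzd1*), 0.39 (*Fzd5*), 0.73 (*Fzd2*), 1.43 (*Fzd7*) and 2.54 (*Fzd9*). The ranges overlapped, and the 2 members called by DESeq2 had no match of 7 or 8 bases to the seed AAGUGCU in the 3′UTRs of GENCODE M21. Other seeds, other 3′ ends and other rules for target sites were not examined.

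The members also differ in gene structure and base composition. *Fzd1*, *Fzd2* and *Fzd7* to *Fzd10* have 1 exon each, *Fzd4* and *Fzd5* have 2, and *Fzd3* and *Fzd6* have 7. The most GC-rich stretch of 200 bases in a transcript held at least 75% G and C in 8 of the 10 members, with 82.5% in *Fzd6* and *Fzd8*, 82.0% in *Fzd2* and *Fzd10*, 80% in *Fzd5* and *Fzd9*, 79.5% in *Fzd7* and 77.0% in *Fzd1*. The 2 without one were *Fzd4* (74.0%) and *Fzd3* (68.5%), which were also the only members with log2 fold changes under 0. Genes with such a stretch were shifted as a class. Over the 3175 tested, the median log2 fold change was 0.14, with 67.1% higher in KO, against -0.04 in the 10670 without one. As deviations from the mean of all libraries, the median of these genes less that of the others was -0.15, -0.03 and -0.13 (log2) in the WT libraries and 0.14, 0.11 and 0.08 in the KO libraries.

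Against this class, the Frizzled counts stood closer to the background. KO libraries lay above WT for 3 of the 7 tested members with a GC-rich stretch and for 24.4% of all genes with one. An unadjusted p under 0.05 with higher KO was reached by 4 of the 7 and by 23.3% of the class. Both counts of members include *Fzd9*, which passed the filter on low counts through KO alone. Among the 970 genes with a stretch of 80 to 85% the median log2 fold change was 0.50 and the middle 50% of the genes ran from 0.12 to 1.01. *Fzd5* (0.39), *Fzd6* (0.36) and *Fzd2* (0.73) lay within that band, and *Fzd8* (1.16) and *Fzd9* (2.54) above it. *Fzd7*, at 79.5%, was at the 95 percentile of all genes with a GC-rich stretch, and *Fzd2* was at the 81.5 percentile. Over the 1124 tested genes with a stretch of 79 to 83%, the median log2 fold change was 0.43, with 80.4% higher in KO.

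**Figure D4:**
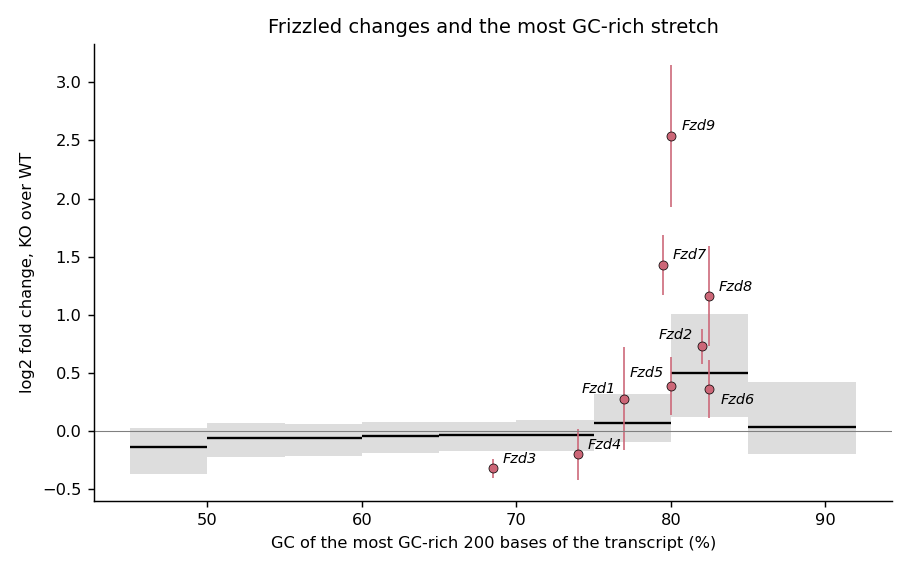
Log2 fold change (KO over WT) of the tested Frizzled genes, with its standard error, against the GC share of the most GC-rich 200 bases of the transcript. Grey boxes and black lines give the middle 50% and the median of all tested genes in each GC bin. The median is 0.50 between 80 and 85%. *Fzd9* and *Fzd7*, the latter near the upper edge of its bin, lie far above their boxes. *Fzd8* lies above its box, and *Fzd2*, *Fzd5* and *Fzd6* lie within theirs.

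When each library was given an offset for its trend on the GC-rich stretch, the fold changes of the GC-rich members were smaller. *Fzd7* stood at 1.18 (edgeR adjusted p = 0.159, DESeq2 adjusted p = 3.37e-05) and *Fzd2* at 0.41 (edgeR adjusted p = 0.309, DESeq2 adjusted p = 0.0997). DESeq2 with these offsets called 1 member, *Fzd7*, and 2.82% of all its genes as higher, so that the call of *Fzd2* was lost. *Fzd6* went to 0.03, *Fzd5* to 0.11, *Fzd8* to 0.78 and *Fzd9* to 2.25, and *Fzd3*, which has no such stretch, to -0.28. Corrected in this way, *Fzd7* was at 19.9, 37.3 and 29.0 CPM in WT and at 71.8, 54.8 and 69.4 CPM in KO, and *Fzd2* at 39.5, 48.6 and 43.3 CPM and at 61.9, 50.8 and 62.1 CPM. Neither overlapped between genotypes, but for *Fzd2* the gap had narrowed to that between 48.6 and 50.8 CPM. The part of base composition in the Frizzled differences was not tested beyond these offsets.

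Markers of other cell types were set beside the Frizzled values. KO replicate 2, with the lowest mesenchyme sum, had *Col1a1* and *Col3a1* at 0 CPM but *Col1a2* at 34.9 CPM and *Pdgfrb* at 11.3 CPM. In that library *Fzd7* was at 60.7 CPM and *Fzd2* at 58.9 CPM, and *Fzd1*, at 14.2 CPM, was the lowest of all libraries. KO replicate 3, with the highest *Fzd1*, *Fzd4* and *Fzd6*, had a liver marker sum of 1770 CPM, where WT ran from 641 to 1710 CPM and the other KO libraries stood at 1180 and 564 CPM. Most of that sum was *Afp*, at 1350 CPM in KO replicate 3 and 102 CPM in KO replicate 2, whereas *Ttr* was at 148 and 323 CPM. KO replicate 3 also had a mesenchyme sum of 1050 CPM, as had KO replicate 1. KO replicate 1, with the highest *Fzd8* and *Fzd9*, had 25.1 CPM of endothelial markers, where the other libraries had 1.48 to 8.98 CPM. Of the 6 neural markers, *Sox1* was at 0 in all libraries, and the sum ran from 42.7 to 87.4 CPM in WT and from 48.1 to 110 CPM in KO. The part of these cells in the Frizzled values was not tested. Without WT replicate 3 and KO replicate 1, the libraries with the most hemoglobin, the log2 fold change was 1.33 for *Fzd7*, 0.63 for *Fzd2*, 2.04 for *Fzd9*, 0.65 for *Fzd8*, 0.59 for *Fzd6*, 0.48 for *Fzd1*, 0.13 for *Fzd5*, -0.05 for *Fzd4* and -0.33 for *Fzd3*.

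By Pearson correlation of log2 CPM over the 6 libraries, the genes most like *Fzd7* were *Map10* (r = 0.996), *Gm31834* (0.995), *2310022B05Rik* (0.995), *Mark2* (0.994) and *Klf3* (0.994). They were picked as the highest of 16353 values, and the 6 points share the split by genotype, so the r is a description of the pattern only. All 5 were higher in KO, with log2 fold changes of 0.41 (*Mark2*) to 1.81 (*Gm31834*), and the 4 for which it could be computed had a GC-rich stretch of 78.0 to 81.0%.

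The partners of the Frizzleds in the Wnt pathway, 79 genes listed by role, were compared in the same fit. Of the 68 tested, 48 were higher and 20 lower in KO, where 45.6% of all genes tested were higher, and the median log2 fold change was 0.29. By the quasi-likelihood test of edgeR (Benjamini-Hochberg), 0 passed an adjusted p of 0.05. At an unadjusted p under 0.05, 14 of the 68 were higher and 3 lower, where 6.42% and 3.97% of all genes tested were. The 14 include *Notum* and *Sp5*, which passed the filter on low counts through their KO libraries alone. DESeq2's Wald test called 8 higher and 0 lower, where it called 4.22% and 0.648% of its genes. The unadjusted count of 17 was 6 without the 2 libraries with the most hemoglobin, while the median was 0.23. That fit has fewer libraries, the share of all genes called in it is not given here, and the cause of the drop was not tested.

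Next to the Frizzleds in the membrane, all 9 co-receptors and alternative Wnt receptors passed the filter, and their median log2 fold change was 0.29. The log2 fold change was positive for 8, where 45.6% of all genes tested were higher. All KO libraries lay above all WT libraries for 3, against 8.36% of all genes tested. *Lrp6*, the co-receptor that pairs with Frizzled in β-catenin signaling, was at 21.2, 28.9 and 21.4 CPM in WT and at 41.5, 33.2 and 44.0 CPM in KO (log2 fold change 0.73, edgeR adjusted p = 0.168, DESeq2 adjusted p = 0.00385). With the GC-rich stretch offsets its log2 fold change by DESeq2 was 0.48 (adjusted p = 0.133), and the call was lost as for *Fzd2*. Like *Fzd2* and *Fzd7*, *Lrp6* was highest in replicate 2 within WT and lowest in replicate 2 within KO. *Ror1*, a receptor kinase for Wnt5a with a Frizzled-like domain, averaged 19.2 ± 8.50 (WT) and 45 ± 11.3 CPM (KO, SD, n = 3 each here and below; log2 fold change 1.23, edgeR adjusted p = 0.204, DESeq2 adjusted p = 0.00169). *Tspan12*, the tetraspanin partner of *Fzd4*, was at 56.1 ± 1.55 and 65.4 ± 2.15 CPM (log2 fold change 0.22, edgeR adjusted p = 0.401), without overlap, and *Lrp5* was at 3.47 ± 0.842 and 5.46 ± 1.81 CPM (0.66, edgeR adjusted p = 0.578), with overlap.

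Of 20 ligands, 10 passed the filter, with a median of 0.62. *Wnt7b*, a Wnt of epithelia, averaged 30.2 ± 9.93 (WT) and 48.7 ± 13.2 CPM (KO) (log2 fold change 0.69, edgeR adjusted p = 0.482). *Wnt6* was at 6.52 and 8.54 CPM in KO replicates 1 and 3 but at 0.342 CPM in KO replicate 2, within the WT range of 0.223 to 0.566 CPM. The log2 fold change of *Wnt6* was 3.51 (edgeR adjusted p = 0.238, DESeq2 adjusted p = 0.00168). The 9 genes of receptor turnover control how much Frizzled stays on the surface. The ubiquitin ligases *Znrf3* and *Rnf43*, which remove Frizzled, were at 3.40 ± 1.2 and 31.5 ± 4.5 CPM in WT and at 3.14 ± 0.855 and 35.9 ± 7.20 CPM in KO, both overlapping (log2 fold changes -0.11 and 0.19, edgeR adjusted p = 0.962 and 0.832). *Lgr4* and *Lgr5*, receptors for R-spondin, which holds those ligases back, had log2 fold changes of 0.63 and 0.73 with overlap (edgeR adjusted p = 0.425 and 0.559). The median of this group was 0.64.

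Among 14 tested inhibitors the median was 0.29, and 4 were higher at an unadjusted p under 0.05, where 6.42% of all genes and 23.3% of those with a GC-rich stretch were. *Shisa2*, which holds Frizzled back in the endoplasmic reticulum, was at 7.54, 13.1 and 7.38 CPM in WT and at 43.9, 17.9 and 24.5 CPM in KO (log2 fold change 1.63, edgeR adjusted p = 0.16, DESeq2 adjusted p = 0.000223). *Notum*, which removes the lipid by which Wnt binds the Frizzled domain, had 1, 3 and 3 counts in WT and 26, 22 and 15 in KO. Both were higher in every KO library than in any WT library, but *Notum* passed the filter on low counts through its KO libraries alone. Its direction was therefore largely set by the filter.

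Inside the cell, *Dvl3* averaged 80.5 ± 13.8 (WT) and 109 ± 5.97 CPM (KO) (log2 fold change 0.44, edgeR adjusted p = 0.238), without overlap, whereas *Dvl1* (-0.07, edgeR adjusted p = 0.973) and *Dvl2* (0.04, edgeR adjusted p = 0.948) overlapped. The Dishevelled and destruction-complex genes had a median of 0.03, with *Gsk3a* at 7.06 ± 4.67 and 19.7 ± 6.44 CPM (1.48, edgeR adjusted p = 0.29, DESeq2 adjusted p = 0.0117). With the GC-rich stretch offsets the DESeq2 adjusted p of *Gsk3a* was 0.0644. *Ror1*, *Wnt6*, *Shisa2* and *Tcf7l1* kept a DESeq2 adjusted p under 0.05 with these offsets, at 0.00398, 0.00863, 0.0013 and 0.00434. *Axin2*, a member of that complex and a target of β-catenin signaling, was at 2.31, 1.06 and 1.8 CPM in WT and at 1.6, 1.2 and 1.58 CPM in KO (log2 fold change -0.24, 95% interval -1.12 to 0.65, edgeR adjusted p = 0.916). All 8 TCF/LEF factors and canonical targets were tested, and their median was 0.58. Log2 fold changes were positive for 7 of them, where 45.6% of all genes tested were higher. The only lower gene was *Ccnd1* (-0.57), with an unadjusted p under 0.05 by the quasi-likelihood test of edgeR. *Lef1* ranged from 0.171 to 5.93 CPM within KO alone (0.97, edgeR adjusted p = 0.851). *Tcf7l1*, a repressor of Wnt targets, was at 16.9 ± 5.59 and 37.8 ± 7.28 CPM (1.16, edgeR adjusted p = 0.147, DESeq2 adjusted p = 0.000299), and *Sp5*, a direct target, had 5 to 7 counts in WT and 12 to 32 in KO. Like *Notum*, *Sp5* passed the filter on low counts through its KO libraries alone. The 8 planar cell polarity genes, which work with *Fzd3* and *Fzd6*, had a median of -0.21 with 5 lower. *Prickle2* was at 9.47 ± 1.37 and 5.11 ± 1.40 CPM without overlap (-0.89, edgeR adjusted p = 0.24), and *Celsr1* had a log2 fold change of -0.76 with overlap (edgeR adjusted p = 0.605).

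**Figure D5:**
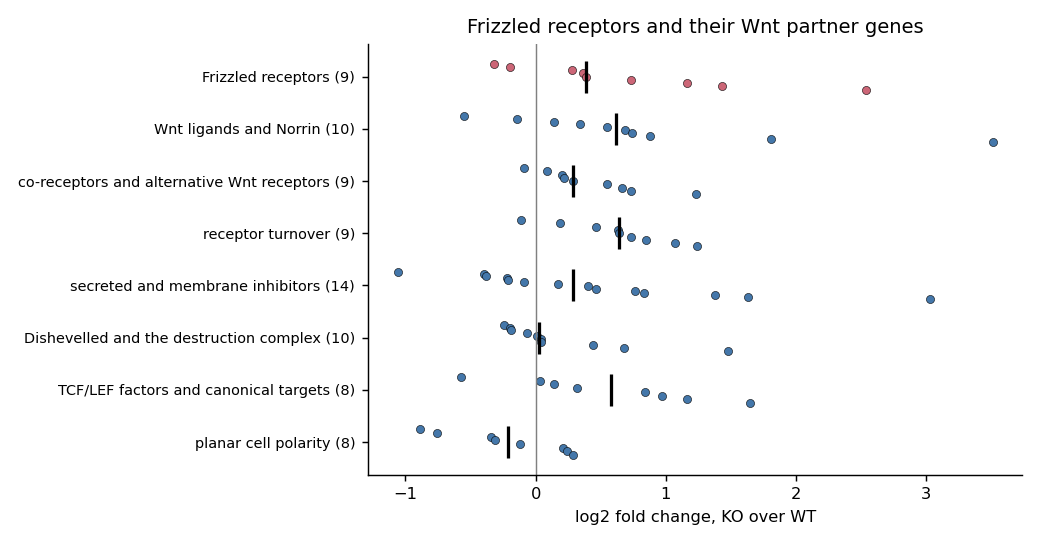
Log2 fold change (KO over WT, edgeR) of each tested gene, 1 point per gene, for the Frizzled receptors (red) and the Wnt partner genes by role (blue), with a bar at the median and the number of genes tested in brackets. The median is 0.39 for the Frizzled receptors and runs from -0.21 for planar cell polarity to 0.64 for receptor turnover.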

How the data were processed

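Cells had been sorted into Trizol LS, cDNA made with the SMART-seq v4 kit and libraries with Nextera XT. The authors aligned reads to GRCm39 with STAR, counted them per gene with GenomicAlignments and deposited raw, whole-number counts for each library. Versions, gene annotation and use of strand are not given in the sources used here.

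Counts of all genes were fitted with edgeR 4.0.16 (R 4.3.3) after filterByExpr with TMM factors, glmQLFit and glmQLFTest at their defaults, genotype alone, and Benjamini-Hochberg adjustment over 16353 genes. DESeq2 1.42.0, the tool of the study, was an alternative. CPM are TMM-scaled, ± is SD, and standard errors come from the fold change and its F statistic. Symbols were found for 94% of identifiers. Exon lengths, 3′UTRs and GC content came from GENCODE M21 on GRCm38, so no coordinates of Frizzled genes are given. Offsets were smooth trends of each library on the GC share of the most GC-rich 200 bases. The scripts were tested on simulated data. Same-numbered WT and KO libraries deviated with r of -0.211, 0.251 and 0.0779, so the numbers were not taken as pairs. Replicates differed beyond counting noise (chi-square per degree of freedom 25.3 to 41.0), so none was counted as a duplicate. Members and gene lists were chosen with earlier results of these data known. Named were all 10 members, a fixed set of partners, the 2 smallest p-values in each role and the 5 genes most like *Fzd7*. *Ccnd1* was named in addition, as the only lower gene of its role.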

Additional observations from a re-analysis of the deposited data

How the results depend on the processing

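With 3 libraries per genotype and an edgeR threshold that no gene passed, the number of Frizzled genes called depended on the tool. With adjusted p under 0.05, 0 were called in the reported fit, 2 by edgeR without a filter on low counts, 2 by DESeq2, 1 by DESeq2 with offsets for the GC-rich stretch, and 0 to 1 when 1 library was left out (1, *Fzd7*, without WT replicate 2). The same counts for the Wnt partner genes were 0, 2, 8, 7 and 0 to 3. Of all genes, 0.0% were called in the reported fit, and DESeq2 called 4.22% higher and 0.648% lower. DESeq2 with the offsets called 2.82% higher. For the other fits of this section the share over all genes is not given here, so their counts cannot be set against a background. The partner count at an unadjusted p under 0.05 was 17, and 6 without WT replicate 3 and KO replicate 1, a fit with fewer libraries. The partner median log2 fold change was 0.29 in the reported fit and 0.23 in that one. The Frizzled median log2 fold change of 0.39 was 0.16 with the GC-rich stretch offsets, 0.18 with DESeq2 and these offsets, 0.59 without the 2 libraries with the most hemoglobin, and 0.40 to 0.62 when 1 library was left out. The number of members without overlap, 5, was 5 to 8 when 1 library was left out, the highest without KO replicate 3, and 4 with offsets for GC content and length. Fewer libraries make a gap easier to reach, and the matching shares over all genes are not given here. Of the 10 places in the WT order, 5 were kept by CPM without length, 5 by coding length and 8 when any 1 WT library was left out. *Fzd1* reversed to -0.38 without KO replicate 3 (range to 0.62), *Axin2* to 0.03 without WT replicate 1 (range from -0.47), and *Znrf3* to 0.17 without WT replicate 2 and 0.10 without KO replicate 2 (range from -0.32). These were 4 of 210 values over 15 alternatives for the 9 tested Frizzled genes, *Lrp5*, *Lrp6*, *Axin2*, *Lef1* and *Znrf3*. Among the other named partners, *Dvl1* went from -0.07 to 0.26 without KO replicate 3 and *Dvl2*, at 0.04, was at 0.00 without it. The cause was not tested. With a replicate block, 0 Frizzled genes passed an adjusted p and 4 an unadjusted one (5 without the block), *Fzd7* stood at 1.48 and *Fzd8* at 1.00, and 0 partner genes passed. DESeq2 with GC-rich stretch offsets and the fit without the hemoglobin-rich libraries were chosen after seeing the data. Counts of *Fzd9* and *Fzd10* in WT are too few for a precise fold.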
